A study of Mus musculus with 79 samples.

Results

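Embryoid bodies of mouse embryonic stem cells (ESCs) that lack the DNA methyltransferases Dnmt1, Dnmt3a and Dnmt3b were compared at day 4 with bodies of their parental line. The 3 libraries labelled DNMT_KO at EB D4 (DNMT KO) and the 2 labelled DNMT_WT at EB D4 (DNMT WT) were taken by their labels, 5 of 79 libraries in all, and every gene of the table was used. Before differentiation the ESCs were kept in 2i/Lif, and the bodies are aggregates in which cells leave pluripotency and take up early lineages. The knockout and its parent are 1 line each, so a difference between genotypes and a difference between these lines cannot be told apart. The labels do not state whether replicates came from separate cultures, and the p-values below reflect only how far these libraries spread, which may be technical. Other libraries used for comparison were a line without Tet1, Tet2 and Tet3 (TET KO) and its own parent (TET WT) at EB D4, 3 libraries each, and the DNMT lines as ESCs at day 0 and as bodies at days 2, 6 and 8.

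DNA methyltransferases put methyl groups on cytosine in CpG dinucleotides. Dnmt3a and Dnmt3b set methylation on unmethylated DNA as the epiblast forms, and Dnmt1 copies it to the new strand at each cell division. In the early embryo this mark is known for keeping germline genes silent outside the germline and for marking the parental copies of imprinted genes. Around the same stage the primitive streak forms, from which mesoderm and endoderm arise, and the earliest blood and endothelial cells come from that mesoderm.

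Values are RPKM, reads scaled to exon length and library depth, and a gene with no read carries the value of 0.9 reads. The 5 libraries had a depth of 10.907 to 12.69 M reads, as inferred from the value of genes without a read. Replicates of a genotype correlated at 0.9961 to 0.9965 across genes, which are not independent replicates. Of the 11 libraries at EB D4, TET WT replicate 2 stood apart with 15.1% of its reads on Gm42418, against 0.0591% to 0.115% in the others, and it enters the results below only through the estimate of spread and the TET comparison. Mitochondrial reads made up 1.22% to 1.51% of the 5 DNMT libraries. Markers of the lineages of an embryoid body were present in both genotypes: Pou5f1, Sox1, Kdr and Sox17 had reads in all 5 libraries, and the streak genes T and Mixl1 had reads in all 5 as well.

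The targeted genes were low but not at 0 in the libraries labelled DNMT KO. Dnmt1 (chromosome 9, 20907209 to 20959888, GRCm38) stood at 4.76, 4.83 and 5.03 RPKM in KO and at 41.6 and 39.7 RPKM in WT, a log2 change of -2.94 ± 0.16 (SE, adjusted p = 2.47e-09). Dnmt3a fell from 16.4 and 15.7 RPKM in WT to 2.28, 2.25 and 2.67 RPKM in KO (log2 -2.52 ± 0.17, adjusted p = 1.38e-08). Dnmt3b, by far the most abundant of them in the parent, fell from 316 and 321 RPKM to 28.9, 27.3 and 27.5 RPKM (log2 -3.49 ± 0.16, adjusted p = 2.13e-10). Which exons were deleted is not given in the sources used here, so the remaining reads may lie outside the deletions. Dnmt3l, which codes for a partner of Dnmt3a and Dnmt3b without catalytic activity, went the other way, with 63.1, 63.3 and 64.2 RPKM in KO against 11 and 10.3 RPKM in WT (log2 2.52 ± 0.14, adjusted p = 3.52e-09). The demethylating enzyme Tet2 was also higher (log2 1.13, adjusted p = 7.62e-05), the only one of 9 tested TET and base excision genes to be called.

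At day 4 the knockout bodies had more genes raised than lowered: 889 of 15267 genes tested were called, 689 higher (4.51%) and 200 lower (1.31%), and the median log2 change of all genes tested was 0.00. Genes were called with limma where the Benjamini-Hochberg adjusted p was below 0.05 and the fold was 2 or more in either direction, that is 1 on the log2(RPKM + 0.5) scale, which understates the change of genes at low levels. Most raised genes were at low levels in the parent, where 374 of 689 had a mean under 1 RPKM, while the 200 lowered genes had a median of 4.76 RPKM in WT and 1.37 RPKM in KO. A change of log2 2 or more was seen for 85 of the raised and 20 of the lowered genes. The KO and WT libraries did not overlap for any called gene, as for 59.2% of all genes tested. The share higher among the called was 77.5%, and it was 67.4% (551 higher, 267 lower) after quantile normalization. On the X chromosome 58 of 571 genes tested were higher (10.2%), against 2.81% to 5.67% on the numbered chromosomes. Lower there were 13 (2.28%), against 0.386% to 2.27%.

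**Figure D1:**
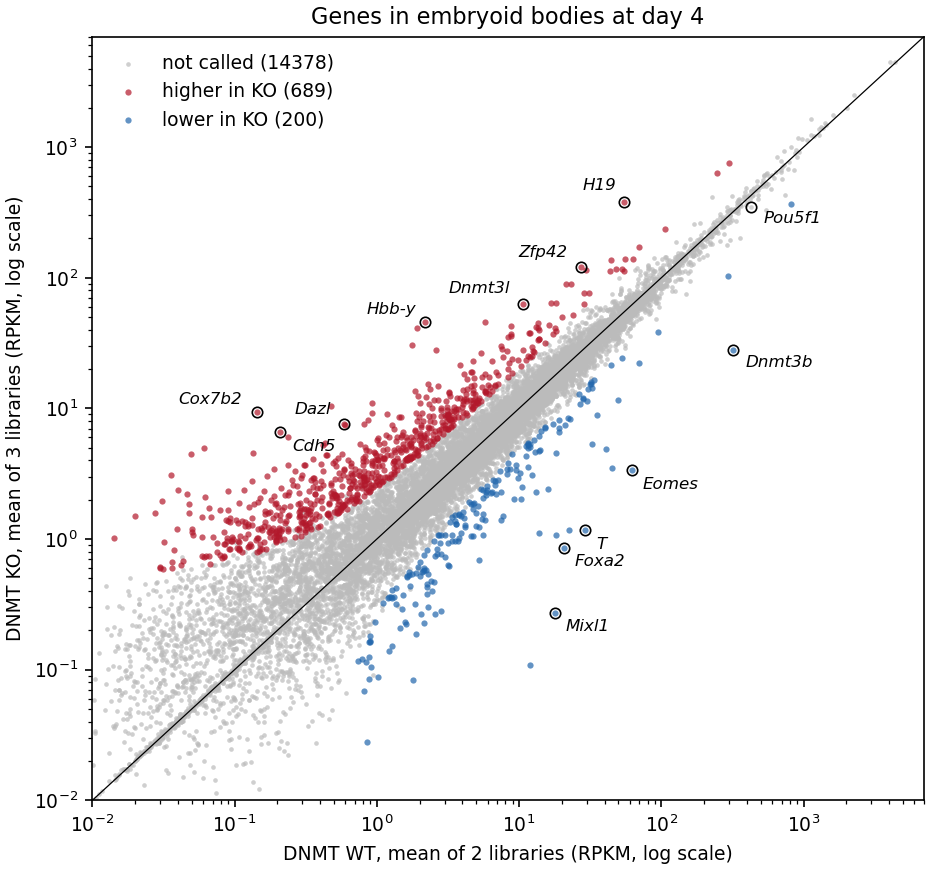
Mean RPKM of each of the 15267 genes tested in the 2 DNMT WT libraries (x axis) and the 3 DNMT KO libraries (y axis) at EB D4, both on log scales, with genes called higher (689) in red, called lower (200) in blue and the rest in grey. Red points lie mostly at low WT levels, while the streak genes T, Mixl1, Eomes and Foxa2 lie far below the line of equality and Pou5f1 lies close to it.

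Most genes of the primitive streak were lower in the knockout. Of 28 members of the list, 25 were tested, 17 fell and 1 rose (Fgf4), with a median log2 change of -1.55. Mixl1, a homeobox factor of the streak (chromosome 1, 180693043 to 180697034), had 0.359, 0.36 and 0.103 RPKM in the KO libraries against 12.2 and 23.5 RPKM in WT (log2 -4.51 ± 0.29, adjusted p = 4.45e-07). T, the T-box factor Brachyury that marks the streak and nascent mesoderm (chromosome 17, 8434423 to 8442496), had 1.11, 0.911 and 1.5 RPKM against 20.9 and 37.7 RPKM (log2 -4.11 ± 0.21, adjusted p = 2.47e-09). The organiser gene Gsc had 0.0722, 0.0651 and 0.186 RPKM in KO, with no read in 1 of these libraries, and 7.87 and 15.9 RPKM in WT (log2 -4.28 ± 0.23, adjusted p = 3.52e-09). WT replicate 2 was the higher WT library for all of these genes, and every KO library lay far under both WT libraries.

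The T-box factor Eomes, which acts in endoderm and cardiac mesoderm formation, stood at 3.61, 3.07 and 3.39 RPKM in KO and at 55.0 and 68.8 RPKM in WT (log2 -4.01 ± 0.16, adjusted p = 8.7e-11). Foxa2, a forkhead factor of the anterior streak and endoderm, had 0.657, 0.658 and 1.26 RPKM against 16.3 and 24.8 RPKM (log2 -3.95 ± 0.23). For both genes, as for every gene called lower, every KO library lay under both WT libraries. Lhx1, another organiser gene, was lower by less (0.764, 1.28 and 0.851 against 1.98 and 5.42 RPKM, log2 -1.40, adjusted p = 0.00775), and its call was lost without WT replicate 2. Mesp1, the early cardiac mesoderm factor, was near the floor in all 5 libraries, with no read in the KO libraries and 6 reads in the WT libraries together, and was not called. With single libraries left out, the count of fallen streak genes ran from 15 (without WT replicate 2) to 19 (without WT replicate 1).

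Some signalling genes of the streak fell, among them Fgf8, Wnt8a and Wnt3. Fgf8, a growth factor needed for cells to leave the streak, had 2.44, 3.6 and 4.44 RPKM in KO against 41.5 and 48.1 RPKM in WT (log2 -3.53 ± 0.21, adjusted p = 4.7e-09). Wnt8a fell from 21.4 and 23.7 RPKM to 1.31, 1.42 and 0.767 RPKM, and Wnt3, the ligand that induces the streak, from 5.12 and 5.42 RPKM to 0.952, 1.46 and 1.28 RPKM. Of 34 tested members of the Wnt list 7 fell and 1 rose, with a median of -0.25. Those that fell included the direct Wnt targets Sp5 (log2 -3.69 ± 0.42, adjusted p = 0.000223) and Axin2 (log2 -1.53 ± 0.16), and Wnt11 (log2 -1.39). The one that rose was Notum, a secreted enzyme that inactivates Wnt ligands, with 10.9, 11.6 and 12.0 RPKM against 2.75 and 2.28 RPKM (log2 2.00 ± 0.17, adjusted p = 2.95e-07).

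Of 35 tested genes of the Nodal and BMP pathways 6 rose and 3 fell, with a median of -0.03. The count that fell was 1 without WT replicate 2 and 2 without WT replicate 1 or KO replicate 1 or 2. Lefty2, a secreted Nodal inhibitor, rose from 31.9 and 26.8 RPKM to 116, 112 and 118 RPKM (log2 1.96 ± 0.16, adjusted p = 1.23e-07). The ligand Bmp4 stood at 7.74, 8.73 and 7.71 RPKM in KO and 1.83 and 2.41 RPKM in WT (log2 1.72 ± 0.21), and its target Id1 at 48.8, 49.7 and 51.0 RPKM against 19.6 and 20.6 RPKM (log2 1.29). Gdf3, a Nodal-related ligand, was higher (log2 1.22). The 3 that fell were the ligand Bmp7 (log2 -1.55), the BMP antagonist Chrd (log2 -1.06) and the Nodal co-receptor Cfc1 (log2 -1.05), the last 2 chosen after their values were seen. Fst, a member of the streak list, which codes for the activin-binding protein follistatin, fell from 29.0 and 36.0 RPKM to 5.39, 5.73 and 5.03 RPKM (log2 -2.48 ± 0.15, adjusted p = 3.52e-09). In the list of FGF, Notch and retinoic acid genes 2 of 39 rose and 5 fell, with a median of 0.02. Of all genes tested 4.51% rose and 1.31% fell. Without KO replicate 3 the counts were 5 higher and 4 lower, without WT replicate 2 they were 4 and 4, and with voom 8 and 5. Its members that rose were Fgf4 (log2 1.26) and the retinoic acid binder Crabp1 (log2 1.96), and among those that fell was the retinal reductase Dhrs3 (log2 -1.57).

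Many genes of endothelium and blood were higher in the knockout. Of 25 haematoendothelial genes, all tested, 16 rose and 0 fell, with a median of 1.38. Cdh5, the cadherin of endothelial junctions, had 5.97, 6.5 and 7.22 RPKM in KO and 0.179 and 0.236 RPKM in WT (log2 3.32 ± 0.19, adjusted p = 3.52e-09). Sox18, a transcription factor of endothelial cells, had 11, 10.8 and 9.34 RPKM against 0.569 and 0.39 RPKM (log2 3.48 ± 0.18, adjusted p = 1.52e-09). Tal1, the bHLH factor required for blood formation, stood at 2.8, 3.29 and 3.19 RPKM against 0.536 and 0.0618 RPKM (log2 2.23 ± 0.21). The receptor Kdr, found on mesoderm that gives rise to vessels and blood, was at 2.84, 3.07 and 2.85 RPKM against 0.371 and 0.22 RPKM (log2 2.11 ± 0.16, adjusted p = 9.37e-08).

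The receptors Tek (log2 2.23) and Tie1 (log2 1.98), the junction protein gene Esam (log2 1.99), the factors Gata2 (log2 1.45) and Sox7 (log2 1.38) and Hhex (log2 1.23) were also higher. Levels in WT were under 1 RPKM for these genes except Hhex, whose call was lost without WT replicate 1. In bulk RNA a difference of this kind can come from the number of cells of a type or from RNA per cell, and the 2 cannot be told apart here. Summed over the list, the RPKM ran from 120 to 125 in the KO libraries and from 54.1 to 56.5 in the WT libraries. The 9 members not called included Etv2, Lmo2 and Runx1 (log2 0.48, -0.14 and 0.11, chosen after their values were seen), all with roles at the start of blood and vessel formation.

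Embryonic globins were much higher in the knockout. Hba-x, the embryonic alpha-like globin, had 35.2, 47.4 and 41.3 RPKM in KO and 1.34 and 2.5 RPKM in WT (log2 4.14 ± 0.52, adjusted p = 0.00057). Hbb-y, an embryonic beta-like globin, had 36.6, 47.4 and 52.7 RPKM against 2.52 and 1.85 RPKM (log2 4.10 ± 0.18, adjusted p = 1.94e-10). Hbb-bh1, another, had 44.6, 48.0 and 44.1 RPKM against 4.92 and 6.62 RPKM (log2 2.89 ± 0.35, adjusted p = 0.000185). Of 24 members of the blood and globin list 23 were tested, 11 rose and 0 fell, with a median of 0.90. Hba-a1 (log2 2.17), which has a near-identical copy that reads may be split with, Alas2, the erythroid enzyme of haem synthesis (log2 1.69), and the red cell anion exchanger Slc4a1 (log2 1.63) were among them. Gata1, the erythroid master factor, was called at levels under 1 RPKM (0.713, 0.978 and 0.84 against 0.103 and 0.111 RPKM, log2 1.14, adjusted p = 6.78e-05).

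**Figure D2:**
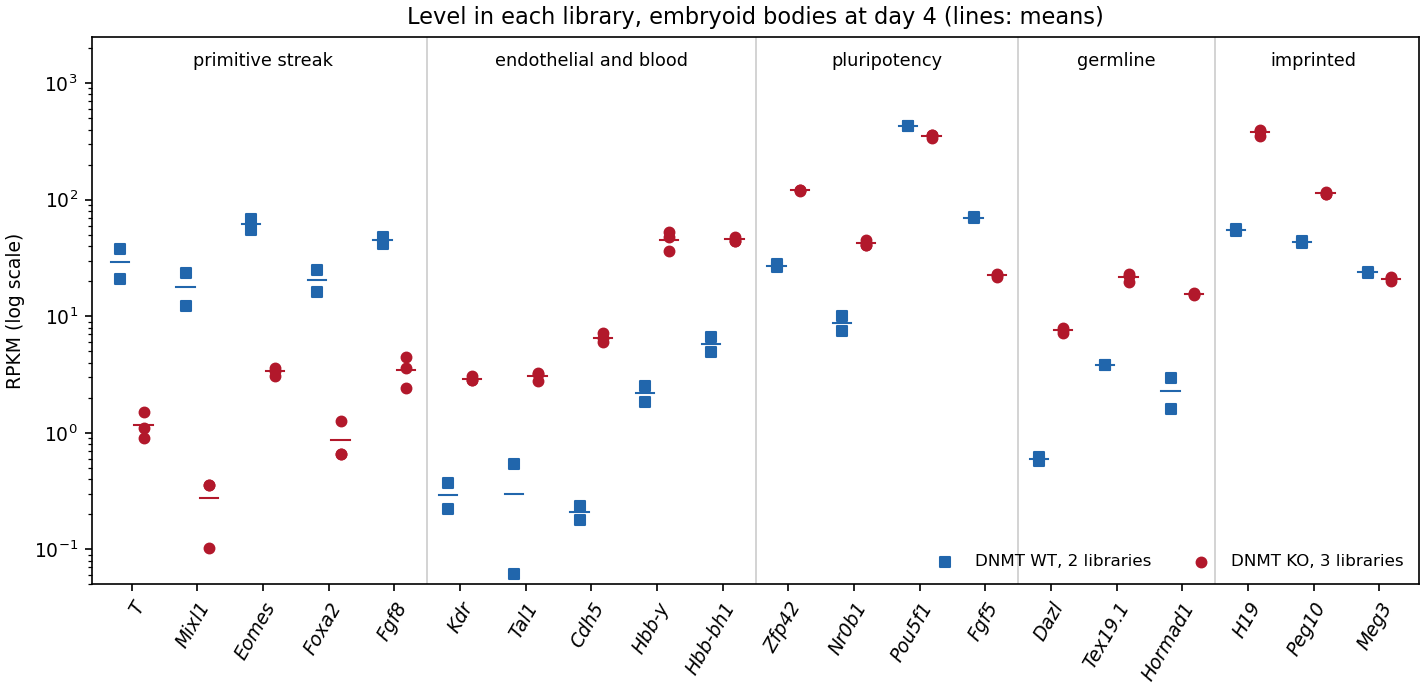
RPKM (log scale) of 20 genes in each DNMT WT library (blue squares, 2 per gene) and DNMT KO library (red circles, 3 per gene) at EB D4, with lines for the means. The 5 streak genes lie lower in KO, the endothelial, globin and germline genes higher, and for Pou5f1 and Meg3 the genotypes lie close together.

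Other mesoderm and endoderm genes moved less. In the mesoderm specification list 39 of 44 members were tested, 7 rose and 2 fell, with a median of 0.35. Without KO replicate 2 or WT replicate 2 the count that fell was 1. With no pseudocount 16 rose and 5 fell, and with voom on recovered reads 17 rose and 5 fell. Kdr, Lefty2 and Bmp4 were among those higher, while Apln, the ligand of the apelin receptor, fell from 5.99 and 9.45 RPKM to 1.4, 1.05 and 2.05 RPKM (log2 -2.04 ± 0.25). In the definitive endoderm list 4 of 24 rose and 2 fell (Foxa2 and Gsc), with a median of 0.40. Prdm1 (log2 1.14) was among those higher, and Sox17, the defining endoderm factor, was not called, at 0.575, 0.98 and 0.661 RPKM against 0.334 and 0.605 RPKM. In the matrix and mesenchyme list Anxa1 (log2 2.68) and Acta2 (log2 1.73) rose and Cdh11 (log2 -1.78) and Thy1 (log2 -1.49) fell, out of 28 tested. Of all genes tested 4.51% rose and 1.31% fell. With no pseudocount 7 of the list rose and 5 fell, and with voom 4 rose and 6 fell. Of 34 Hox genes tested 1 was called (4.51% of all genes tested were higher). It was Hoxd13 at a log2 of 1.0, and its call was lost under several alternatives including quantile normalization.

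Many genes of the extraembryonic endoderm, the yolk sac layer that takes up nutrients and secretes plasma proteins, rose. All 39 members were tested, 20 rose and 1 fell (Fst), with a median of 1.02. Afp, alpha-fetoprotein, had 4.92, 5.39 and 5.57 RPKM in KO against 0.597 and 0.241 RPKM in WT (log2 2.68 ± 0.22, adjusted p = 1.71e-07). Cubn, the endocytic receptor cubilin, had 4.52, 4.47 and 4.99 RPKM against 0.915 and 1.01 RPKM (log2 1.82 ± 0.16), and the transferrin gene Trf had 1.68, 1.63 and 1.97 RPKM against 0.227 and 0.0272 RPKM (log2 1.87). Apoa1, an apolipoprotein, rose at low levels (log2 1.86 ± 0.28), and Srgn, which codes for the proteoglycan serglycin, from 1.64 and 1.03 RPKM to 7.09, 6.89 and 7.03 RPKM (log2 2.05).

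A minority of neural genes rose, most of them to low levels. Of 39 members of the neuroectoderm list 24 were tested, 7 rose and 1 fell, and 16 were not called, with a median of 0.25. Sox1, the earliest neural SoxB factor to mark neuroectoderm, had 3.35, 4.46 and 3.6 RPKM in KO and 0.59 and 0.392 RPKM in WT (log2 2.12 ± 0.18, adjusted p = 2.09e-07). Sox21 (log2 1.66), Hes3 (log2 1.45) and the midbrain factor En2 (log2 1.33) stood at or under 2.43 RPKM in every KO library. The gene that fell was Rax (log2 -1.0, chosen after its values were seen), a factor of the eye field, whose call was lost without any 1 library other than KO replicate 2. In the trophoblast list 3 of 28 rose (Ascl2, Peg10 and Phlda2) and Eomes fell. The count that rose was 1 without WT replicate 1, 2 without KO replicate 3, 5 without KO replicate 2, 9 with a pseudocount of 0.1 and 8 with voom. In the neural crest and surface ectoderm list 1 of 15 rose, the epidermal factor Grhl3 (log2 1.46), beside 4.51% of all genes tested.

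Naive pluripotency genes were higher in the knockout while the core factors were not called. All 20 naive genes were tested, 16 rose and 0 fell, with a median of 1.55. Zfp42, a marker of naive cells also known as Rex1, had 119, 121 and 122 RPKM in KO against 27.9 and 26.3 RPKM in WT (log2 2.13 ± 0.19, adjusted p = 4.46e-07). Nr0b1, an orphan nuclear receptor, had 41.2, 45.0 and 41.0 RPKM against 10.1 and 7.43 RPKM (log2 2.22 ± 0.20, adjusted p = 4.71e-07). Dppa2 (log2 2.03), Dppa4 (log2 1.93), Zfp981 (log2 1.84) and Dppa3 (log2 1.83) followed. As for every called gene, their KO and WT libraries did not overlap.

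Pou5f1, the core factor Oct4, stood at 362, 357 and 336 RPKM in KO and at 426 and 428 RPKM in WT (log2 -0.28 ± 0.17, adjusted p = 0.31). Nanog, at 108, 120 and 117 RPKM against 127 and 129 RPKM, was not called either (log2 -0.15, adjusted p = 0.585). In the general pluripotency list 2 of 13 rose, Dppa5a (778, 728 and 779 against 316 and 286 RPKM) and Gdf3, and 0 fell, with a median of 0.10.

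Of 18 genes of the formative and primed state 5 fell, 1 rose and 12 were not called, with a median of -0.49. Fgf5, a marker of the epiblast after implantation, fell from 70.7 and 69.0 RPKM to 21.6, 23.1 and 22.5 RPKM (log2 -1.62 ± 0.15, adjusted p = 6.19e-07). Pim2, a kinase gene, fell from 297 and 290 RPKM to 105, 103 and 99.3 RPKM (log2 -1.51), and Zic2 from 93.4 and 96.5 RPKM to 35.7, 37.5 and 42.3 RPKM (log2 -1.29). The other 2 that fell were Dnmt3b and Wnt8a. Otx2, an anterior epiblast factor, was at 33.9, 31.9 and 34.4 RPKM against 46.8 and 45.4 RPKM, under the size threshold (log2 -0.46, adjusted p = 0.0417). The member that rose was Tcf15 (29.3, 43.8 and 39.6 against 12.7 and 11.2 RPKM).

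**Figure D3:**
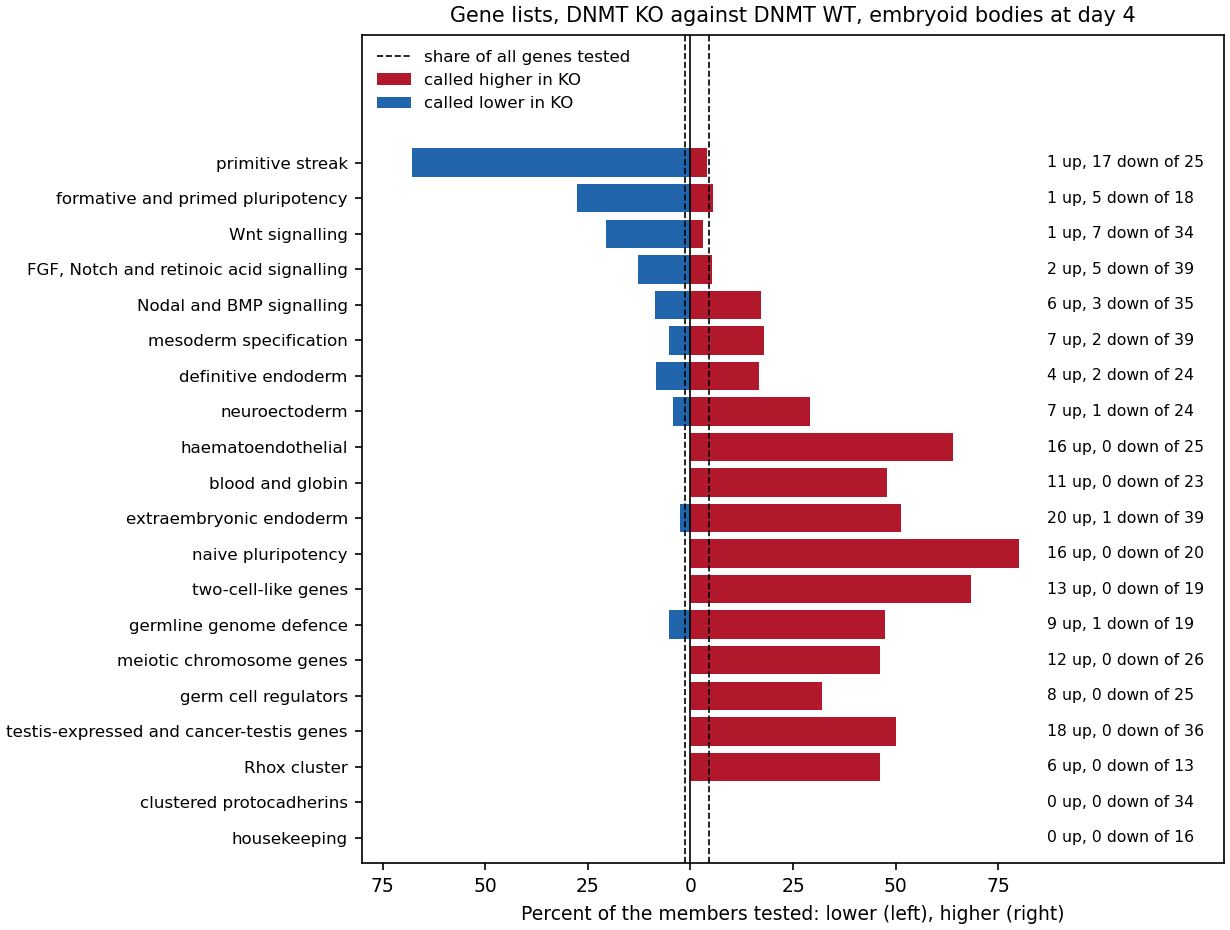
Percent of the tested members of 20 gene lists called higher (red, right) or lower (blue, left) in DNMT KO at EB D4, with dashed lines at the shares of all genes tested (4.51% higher, 1.31% lower) and the counts at the right. The primitive streak list extends furthest to the left (17 of 25), and the naive pluripotency list furthest to the right (16 of 20).

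Germline genes, the group best known for silencing by promoter methylation, were in part higher in KO than in WT. Rose and raised refer here to KO against WT at day 4, not to a change over time. In the genome defence list 22 members included 19 tested, of which 9 rose and 1 fell, with a median of 0.89. Dazl, an RNA-binding protein of germ cells (chromosome 17, 50279395 to 50293636), had 8.0, 7.61 and 7.14 RPKM in KO against 0.57 and 0.614 RPKM in WT (log2 2.89 ± 0.18, adjusted p = 4.66e-09). Fkbp6, a co-chaperone of the piRNA pathway that holds transposons in check, had 10.8, 11.7 and 10.8 RPKM against 1.2 and 0.669 RPKM (log2 3.04 ± 0.18, adjusted p = 3.52e-09). Tex19.1, which acts against retrotransposons in germ cells, had 19.5, 23 and 22.2 RPKM against 3.81 and 3.85 RPKM (log2 2.35). Asz1, a piRNA factor, had 153 reads over the KO libraries (1.68, 1.62 and 1.42 RPKM) and no read in WT, at least 34.2-fold higher with 3 reads over the WT libraries taken as the limit. Piwil2 (log2 2.19) and Gtsf1 (log2 1.87), also of the piRNA pathway, rose, while the gene that fell was Tdrd1 (log2 -1.21, chosen after its values were seen). Ddx4, the Vasa helicase, was not called (4.28, 4.5 and 4.92 against 3.23 and 2.6 RPKM, log2 0.57).

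Of the meiotic genes 33 of 34 were in the table, 26 were tested, and 12 rose and 0 fell, with a median of 0.99. Hormad1, a protein of unsynapsed chromosome axes, had 15.4, 15.7 and 15.2 RPKM in KO and 1.6 and 2.97 RPKM in WT (log2 2.56 ± 0.21, adjusted p = 2.07e-07). Syce1 of the synaptonemal complex (log2 2.01), Hsf2bp (log2 1.92), Slc25a31 (log2 1.89), Tex11 (log2 1.62) and the meiotic cohesin Smc1b (log2 1.60) were also higher. Among 25 germ cell regulators tested 8 rose and 0 fell, with a median of 0.28. Sohlh2, a bHLH factor of germ cells, had 8.48, 7.6 and 8.23 RPKM against 0.674 and 1.07 RPKM (log2 2.66 ± 0.18). Stk31 (log2 1.72), Taf7l (log2 1.26) and Taf9b (log2 2.39) rose at lower levels. Taf9b was counted by its place in the list alone, and a role in germ cells was not examined.

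Testis-expressed and cancer-testis genes, 53 members with 36 tested, had 18 higher and 0 lower and a median of 0.93, or 1.39 with 8 genes without a read in 1 genotype placed at their bound. Tuba3a, an alpha-tubulin of the testis, had 32.9, 31.0 and 27.6 RPKM against 1.89 and 1.67 RPKM (log2 3.76 ± 0.34), and its close copy Tuba3b (log2 3.18) rose as well, so that reads could be shared between them. Rpl39l, a testis form of a ribosomal protein, had 27.8, 28.5 and 27.7 RPKM against 2.82 and 2.39 RPKM (log2 3.20 ± 0.20, adjusted p = 6.86e-09). Cox7b2, a testis-expressed subunit of cytochrome oxidase named by its rise and in none of these lists, had 9.12, 10.7 and 8.29 RPKM in KO and no read in WT, at least 38.9-fold higher. On the X chromosome Tex13b (log2 2.18), Usp26 (log2 1.95) and Nxf2 (log2 1.83) rose from under 0.2 RPKM in both WT libraries. In the Rhox cluster, homeobox genes of the reproductive tract and placenta on the X chromosome, 13 of 32 members were tested and 6 rose. Rhox5 carried most of the signal, at 90.7, 93.5 and 86.2 RPKM against 20.8 and 21.9 RPKM (log2 2.05 ± 0.24, adjusted p = 3.32e-05). Rhox13 had no read in WT (at least 15.8-fold higher), and several of the other calls were not stable. Rhox6 (log2 1.55) was not called without WT replicate 2, Rhox2a, with no read in WT, without KO replicate 3, and Rhox9 (log2 1.07) without KO replicate 1 or 2 or either WT replicate.

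The promoters of 4 of these germline genes that rose are shown with that of Zfp42 and, as a gene that fell, of T, because the knockout acts on CpG dinucleotides, which are in capitals. Each is the 250 bases upstream of a RefSeq start (GRCm38.p6), written 5′ to 3′ on the strand of the gene.
Dazl (chr17:50293621-50293870, minus strand): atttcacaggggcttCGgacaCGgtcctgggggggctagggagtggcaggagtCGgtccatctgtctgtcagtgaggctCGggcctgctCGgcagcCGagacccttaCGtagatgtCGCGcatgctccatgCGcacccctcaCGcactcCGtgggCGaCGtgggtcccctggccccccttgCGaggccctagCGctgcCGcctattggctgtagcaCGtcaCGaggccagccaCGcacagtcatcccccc
Fkbp6 (chr5:135350045-135350294, minus strand): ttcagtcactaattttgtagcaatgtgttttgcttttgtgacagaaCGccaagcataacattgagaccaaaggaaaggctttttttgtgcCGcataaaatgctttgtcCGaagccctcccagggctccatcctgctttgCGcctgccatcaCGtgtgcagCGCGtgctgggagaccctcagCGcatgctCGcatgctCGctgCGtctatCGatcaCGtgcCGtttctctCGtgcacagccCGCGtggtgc
Hormad1 (chr3:95559427-95559676, plus strand): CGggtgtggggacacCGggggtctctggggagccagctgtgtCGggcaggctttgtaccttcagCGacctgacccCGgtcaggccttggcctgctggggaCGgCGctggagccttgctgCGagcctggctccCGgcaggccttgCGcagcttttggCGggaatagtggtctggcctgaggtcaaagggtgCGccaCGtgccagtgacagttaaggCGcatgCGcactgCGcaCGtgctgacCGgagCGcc
Tex19.1 (chr11:121145893-121146142, plus strand): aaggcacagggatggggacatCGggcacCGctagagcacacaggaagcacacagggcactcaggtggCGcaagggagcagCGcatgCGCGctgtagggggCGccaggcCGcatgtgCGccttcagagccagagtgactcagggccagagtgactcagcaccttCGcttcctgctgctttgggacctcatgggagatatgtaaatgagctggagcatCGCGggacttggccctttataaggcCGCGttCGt
Zfp42 (chr8:43307010-43307259, minus strand): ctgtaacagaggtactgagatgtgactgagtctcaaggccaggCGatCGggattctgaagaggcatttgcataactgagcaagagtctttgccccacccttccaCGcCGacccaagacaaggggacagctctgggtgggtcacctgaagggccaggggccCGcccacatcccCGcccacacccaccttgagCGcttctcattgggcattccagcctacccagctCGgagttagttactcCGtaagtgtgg
T (chr17:8434173-8434422, plus strand): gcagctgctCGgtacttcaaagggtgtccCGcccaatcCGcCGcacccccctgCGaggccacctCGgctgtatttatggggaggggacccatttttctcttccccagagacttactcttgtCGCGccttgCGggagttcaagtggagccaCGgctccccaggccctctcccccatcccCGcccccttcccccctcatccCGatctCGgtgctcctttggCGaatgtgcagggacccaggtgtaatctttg

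Over these windows the number of CpGs was 20 for Dazl, 17 for Fkbp6, 19 for Hormad1, 15 for Tex19.1, 9 for Zfp42 and 14 for T. A window was found for 11174 of the 15267 genes tested, whose median was 15 CpGs (quartiles 8 and 22). Genes called higher had a median of 9 CpGs (quartiles 4 and 16, 490 genes with a window) and genes called lower one of 13 (quartiles 7 and 21, 148 genes). The germline genes called higher in the 4 lists above had a median of 13 CpGs (41 of 47 genes), and those not called 10 (49 of 58 genes). The letters CACGTG, a palindrome known as an E-box, were present in 10 of the 41 windows of raised germline genes (24.4%), in 16.3% of the windows of those not called and in 8.53% of all genes tested. Fkbp6 and Hormad1 held them at 2 places each, starting 101 and 37 bases, and 57 and 20 bases, upstream of the start, and they were not in the Dazl and Tex19.1 windows. The letters TCCCGC on either strand, known from E2F sites, were in 24.4% of the windows of raised germline genes and 29.9% of all genes tested. These are matches of letters only, and no binding or methylation was measured here.

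Genes of the 2-cell-like state, a rare state of ESCs named after the 2-cell embryo, were raised at low levels. Of 23 members 19 were tested, 13 rose and 0 fell, with a median of 1.2, or 1.35 with 2 genes placed at their bound. The members summed to 18.6 to 20.1 RPKM in the KO libraries and to 2.25 to 2.31 RPKM in WT. Tmem92 had 2.01, 2.64 and 2.49 RPKM in KO and 0.0383 and 0.0412 RPKM in WT (log2 2.41 ± 0.18, adjusted p = 4.65e-08). Zscan4e (log2 1.60), Usp17lc (log2 1.70), Tcstv1 (log2 1.43) and Tcstv3 (log2 1.54) belong to families of near-identical copies, so the value of each single gene is uncertain.

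Imprinted genes, of which 1 parental copy is silenced through a methylated control region, did not move as a group. H19, a noncoding RNA of the maternal copy (chromosome 7, 142575529 to 142578143), rose from 53.4 and 56.0 RPKM to 355, 386 and 396 RPKM (log2 2.78 ± 0.16, adjusted p = 3.52e-09). Its neighbour Igf2, expressed from the paternal copy, was low in both genotypes (0.608, 0.481 and 0.647 against 0.776 and 0.709 RPKM, adjusted p = 0.468). At the Dlk1 and Meg3 domain Meg3 stood at 21.5, 20.2 and 21.1 RPKM against 23.6 and 24 RPKM, and Dlk1 at 0.76, 0.454 and 0.557 RPKM against 0.282 and 0.319 RPKM, and neither was called.

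Of 24 tested genes of the paternal copy at maternally methylated regions 3 rose and 2 fell, with a median of 0.00. Peg10 rose from 44.5 and 42.9 RPKM to 111, 111 and 116 RPKM (log2 1.36 ± 0.16, adjusted p = 8.29e-06), while Nnat (log2 -1.21) and Magel2 (log2 -1.11) fell. Mest (log2 1.01) lay at the size threshold, and its call was lost without WT replicate 1. Nap1l5 (log2 1.13) lost its call without KO replicate 1 and without WT replicate 2. Quantile normalization lost both calls. Mest was also lost with median centring and the replicate block, and Nap1l5 with no filter and with the DNMT libraries alone. Snrpn, at 206, 203 and 191 RPKM against 350 and 360 RPKM, was under the size threshold (log2 -0.83, adjusted p = 0.00109). Of 20 tested genes of the maternal copy at such regions 4 rose and 1 fell, with a median of 0.29. Grb10, an adaptor that restrains growth, rose from 0.682 and 0.635 RPKM to 3.62, 3.93 and 3.82 RPKM (log2 1.89 ± 0.19), and Cdkn1c, an inhibitor of the cell cycle, from 1.07 and 1.55 RPKM to 4.8, 4.0 and 5.64 RPKM (log2 1.56). Phlda2 (log2 1.15) lost its call without WT replicate 1, Ascl2 (log2 1.19) without either WT replicate or KO replicate 2 or 3, and Calcr, which fell (log2 -1.13), without WT replicate 2. Igf2r was under the size threshold (17.3, 17.6 and 17.9 against 12.7 and 10.5 RPKM, log2 0.59, adjusted p = 0.0133).

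Among chromatin genes Zfp57, the zinc finger protein that guards methylation at imprinted regions, rose from 16.4 and 16.3 RPKM to 44.5, 43.3 and 42.5 RPKM (log2 1.38 ± 0.17), and Zbtb38 was at the size threshold (log2 1.01), with its call lost without KO replicate 3 and without WT replicate 2. Metallothioneins, which bind zinc and other metals, were higher: Mt2 at 638, 636 and 625 RPKM against 272 and 220 RPKM (log2 1.37 ± 0.18) and Mt1 at 226, 245 and 238 RPKM against 107 and 105 RPKM (log2 1.15). With the oxidative stress genes Gpx2, Srxn1 and Nqo1 they made 5 of 11 tested that rose and 0 that fell, and Srxn1 was not called without WT replicate 2. The cell cycle inhibitors Cdkn2a (28.4, 25.4 and 20.6 against 8.51 and 7.0 RPKM, log2 1.61), Cdkn2b (log2 1.46, not called without WT replicate 1), Cdkn2c (log2 1.38) and Cdkn1c rose, and with Ccnd3, at the size threshold, they made 5 of 23. Of 28 genes of hypoxia and glycolysis 2 fell and 0 rose, with a median of -0.34. They were lactate dehydrogenase Ldha, from 791 and 843 RPKM to 361, 381 and 350 RPKM (log2 -1.17 ± 0.16), and Aldoc (log2 -1.02), whose call was lost without WT replicate 1.

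In the interferon list 4 of 34 rose (Ifitm3, Ifitm1, Ddx58 and Cgas), beside 4.51% of all genes tested, with a median of 0.19. The count that rose was 3 after quantile normalization and 3 without WT replicate 2, and Cgas was not called in either. It was 9 with voom and 10 with no pseudocount. The MHC class I genes H2-Q6, H2-Q4 and H2-Q2, which have close copies, fell, 3 of 16, and H2-Q2 lost its call under 6 of 15 alternatives. Of 32 p53 targets 1 rose (Plk3, log2 1.29), beside 4.51% of all genes tested. Among 34 clustered protocadherins tested with limma 0 were called, 13 had a higher level at an unadjusted p below 0.05, and 13 were called higher with voom on recovered reads, so no direction is given for them. Of 16 housekeeping genes limma and voom called 0, with a median of 0.03 and 1 at an unadjusted p below 0.05. Of 13 mitochondrially encoded genes limma and voom called 0, with 0 at an unadjusted p below 0.05. The Y-linked genes Eif2s3y (1.28, 1.15 and 0.909 against 13.2 and 14.2 RPKM), Ddx3y and Uty fell. The change differed little from that in ESCs of the same lines for Ddx3y (-0.02, adjusted p = 0.971) and Uty (-0.19, adjusted p = 0.511), and was larger at day 4 for Eif2s3y (-1.17, adjusted p = 0.000508).

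The KO minus WT change at day 4 was tested against that in ESCs of the same lines at day 0. In ESCs 158 genes were called, 78 higher (0.511%) and 80 lower (0.524%). The change differed from that at day 0 for 1176 genes, 851 with a higher change at day 4 (5.57%) and 325 with a lower one (2.13%). After quantile normalization this was 744 and 459. Of the 689 genes raised at day 4, 23 were raised in ESCs as well, 3.34% of the former and 29.5% of the latter, and of the 200 lowered 7 were lowered in ESCs, 3.5% and 8.75%. By list the change was lower at day 4 for 18 of 25 streak genes, and higher for 15 of 20 naive, 15 of 25 haematoendothelial, 13 of 23 blood and globin and 21 of 39 extraembryonic endoderm genes. Among germline genes it was higher for 6 and lower for 2 of 19 in genome defence, 7 and 1 of 26 meiotic genes, 5 and 0 of 25 germ cell regulators, 10 and 9 of 36 testis-expressed genes and 3 and 3 of 13 Rhox genes. Dazl was already higher in ESCs, at 114 against 40.9 RPKM in the mean, and its log2 change at day 4 was larger by 1.42 (adjusted p = 1.79e-05). From ESCs to day 4 its mean fell in both lines, to 7.58 RPKM in KO and 0.592 RPKM in WT. Fkbp6 fell from 62 to 11.1 RPKM in KO and from 41.9 to 0.932 RPKM in WT. Tuba3a fell from 108 to 30.5 RPKM in KO and from 90 to 1.78 RPKM in WT. Cox7b2 and Taf9b instead rose in KO, from 4.24 to 9.35 RPKM and from 0.786 to 3.69 RPKM. Cox7b2 is in none of the germline lists, and Taf9b was counted as a germline gene by its list alone. Dnmt3l turned direction, at 4.69 against 26.3 RPKM in ESCs, with a difference of 4.89 (adjusted p = 5.42e-13). H19 was near the floor in ESCs of both lines (0.0356 and 0.0335 RPKM). Gsc was high in ESCs of both lines, at 14 RPKM in KO and 11.2 RPKM in WT.

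From day 4 to day 6 the effects grew in some groups and turned in others. At EB D6 2738 genes were called, 1688 higher (11.1%) and 1050 lower (6.88%), and 510 of the 689 genes raised at day 4 were raised again (74.0%, and 30.2% of those raised at EB D6), while 46 were lowered. Of the 200 lowered, 99 were lowered again (49.5%, and 9.43% of those lowered at EB D6). The change itself differed between the days for 1851 genes, 1021 higher at EB D6 (6.69%) and 830 lower (5.44%). Most naive genes separated further, with a higher change at EB D6 for 18 of 20 and a lower one for 2. Zfp42 stood at 3.13 RPKM in WT and 134 RPKM in KO (difference 3.10, adjusted p = 1.47e-09). Pou5f1 was not called at day 4 but stood at 305 against 61.3 RPKM at day 6 (difference 2.59, adjusted p = 1.07e-09). The noncoding RNA Platr10, L1td1 and Utf1, all expressed in pluripotent cells, had differences of 3.91, 3.74 and 3.62 and were not called at day 4.

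At EB D6 11 of 25 haematoendothelial genes were lower and 3 higher in KO, and 12 of 23 blood and globin genes were lower and 2 higher. The KO minus WT change was lower at EB D6 for 19 of 25 haematoendothelial genes and 15 of 23 blood and globin genes. Kdr rose in WT from a mean of 0.295 RPKM at day 4 to 20.3 RPKM at day 6, and in KO from 2.92 to 4.68 RPKM (difference -4.12, adjusted p = 2.99e-15). Hbb-bh1 stood at 8.86 RPKM in KO and 150 RPKM in WT at day 6, and at 59.8 and 3060 RPKM at day 8 (difference between days 4 and 6 of -6.93, adjusted p = 1.24e-09). Hbb-y was still higher in KO at day 6 (15.6 against 4.59 RPKM) and lower at day 8 (36.5 against 342 RPKM). Hand1, a bHLH factor of extraembryonic and lateral mesoderm, was under 1 RPKM in every library at day 4 (not called) and stood at 3.55 RPKM in KO and 358 RPKM in WT at day 6 (difference -7.43).

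At EB D6 14 of 25 streak genes were lower in KO than in WT and 3 higher. T stood at 7.13 RPKM in KO and 33.1 RPKM in WT (log2 -2.15, difference from day 4 of 1.96, adjusted p = 1.31e-06), and Mixl1 at 8.49 and 20.1 RPKM (difference 3.31). Eomes was then under the size threshold (log2 -0.43, difference 3.58, adjusted p = 2.41e-13). The KO minus WT change was higher at EB D6 than at EB D4 for 14 streak genes and lower for 3, which can come from either genotype. H19 turned from higher to lower in KO, at 495 against 1790 RPKM (difference -4.64, adjusted p = 4.37e-16).

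**Figure D4:**
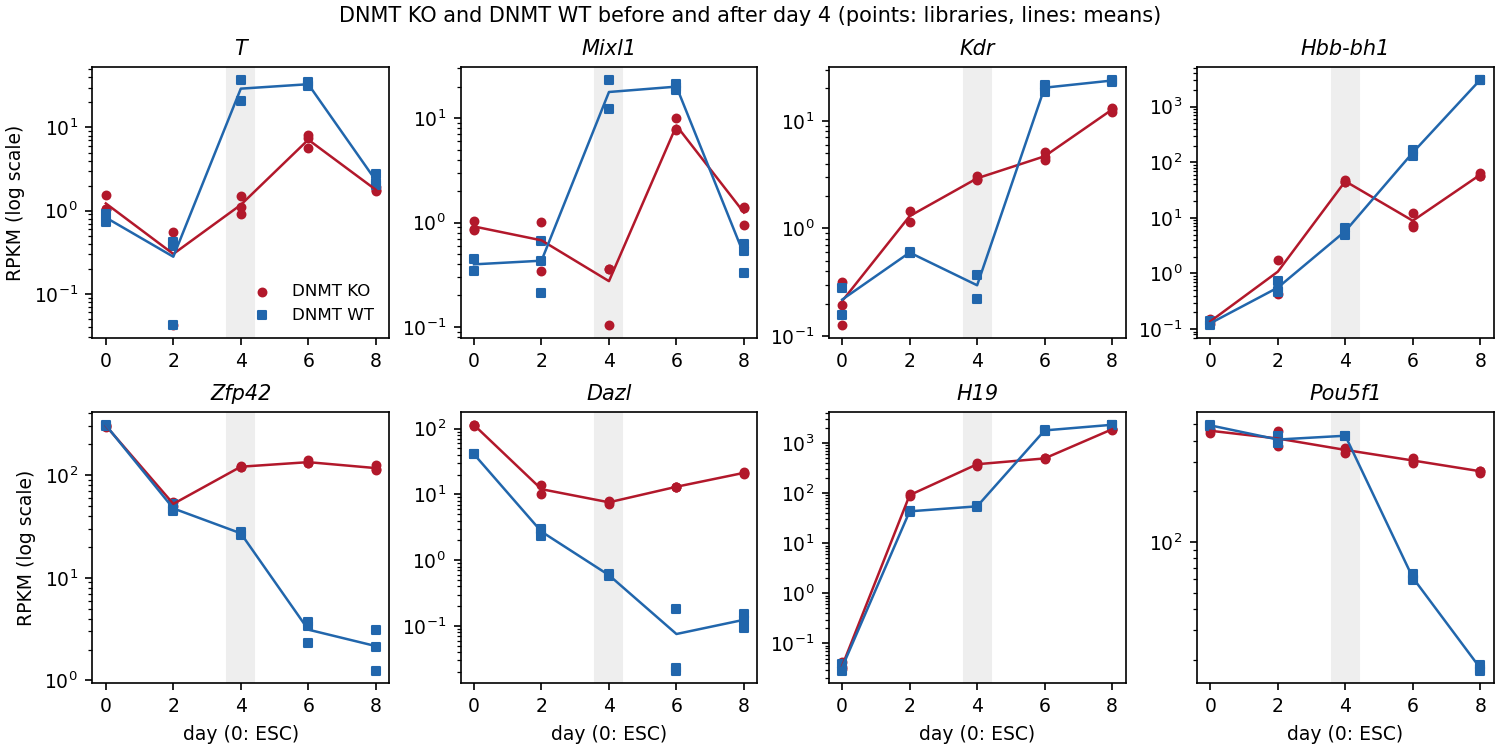
RPKM (log scale) of 8 genes in DNMT KO (red circles) and DNMT WT (blue squares) as ESCs at day 0 and as embryoid bodies at days 2, 4, 6 and 8, with a point for each library, lines through the means and day 4 shaded. At day 4 T and Mixl1 are high in WT alone, Kdr, Hbb-bh1 and H19 are higher in KO and then lower than WT at day 6, Zfp42 lies above WT from day 4 on, and Dazl lies above WT at every time shown.

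The TET KO bodies of the same day, which lack the enzymes that start the removal of methylation, moved the streak genes the other way. There 1446 genes were called against TET WT, 1160 higher (7.6%) and 286 lower (1.87%), with a median log2 change of all genes of 0.19. Of the 25 streak genes 20 rose and 1 fell. The TET KO calls, here and in the overlaps below, include TET WT replicate 2 and were not made with other scalings. The DNMT KO change differed from the TET KO change for 2459 genes, 846 higher (5.54%) and 1613 lower (10.6%). The median difference of all genes was -0.17. With each library centred on its median it was 0.08, with 1320 higher and 1007 lower, and after quantile normalization 1123 were higher and 1165 lower. Without TET WT replicate 2, the library high in Gm42418, the numbers were 1065 and 1294. Of the streak genes 23 had a lower and 1 a higher change in DNMT KO than in TET KO, and with centring 22 and 1. T stood at 394 ± 12.9 RPKM in TET KO and 7.4 ± 1.21 RPKM in TET WT (SD, n = 3 each), so that the changes differed by -9.76 on the log2 scale (adjusted p = 5.68e-13 from limma). For Mixl1 the difference was -11.23 and for Gsc -9.03. The 2 parents were themselves unlike at day 4. T, Mixl1 and Gsc had means of 29.3, 17.8 and 11.9 RPKM in DNMT WT against 7.4, 1.33 and 2.21 RPKM in TET WT. How far these unlike levels add to the differences was not tested.

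In the other direction the change was higher in DNMT KO than in TET KO for 14 of 25 haematoendothelial genes (16 with centring) and lower for 2. Sox18, which fell in TET KO (0.0907 ± 0.0644 against 1.29 ± 0.329 RPKM), differed by 5.07. For extraembryonic endoderm genes the change was higher for 23 of 39 and lower for 3, and 17 of them fell in TET KO. Srgn (difference 6.19) and Cubn (difference 5.14) were among them. Naive genes had a higher change for 15 of 20 and a lower one for 1. Germline lists were mixed, and some were raised in part in TET KO too. There 7 of 19 genome defence genes rose and 0 fell, and of 26 meiotic genes 7 rose and 1 fell. Of 25 germ cell regulators 9 rose and 1 fell, of 36 testis-expressed genes 3 and 1, and of 13 Rhox genes 1 and 0. Beside them 7.6% of all genes tested rose and 1.87% fell in TET KO, and the testis-expressed and Rhox counts lie near these shares. The change of the germ cell regulators was higher in DNMT KO than in TET KO for 6 and lower for 8, and of testis-expressed genes for 12 and 1. Tex19.1 was raised in both knockouts (difference 0.12, adjusted p = 0.711), Dazl in both but more in DNMT KO (difference 1.03), and Hormad1 fell in TET KO, at 0.753 ± 0.14 against 4.07 ± 1.09 RPKM. Of the 689 genes raised in DNMT KO 89 were raised in TET KO (12.9%, and 7.67% of those raised there) and 73 were lowered. Of the 200 lowered 16 were lowered there (8%, and 5.59% of those lowered there) and 63 were raised (31.5%).

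**Figure D5:**
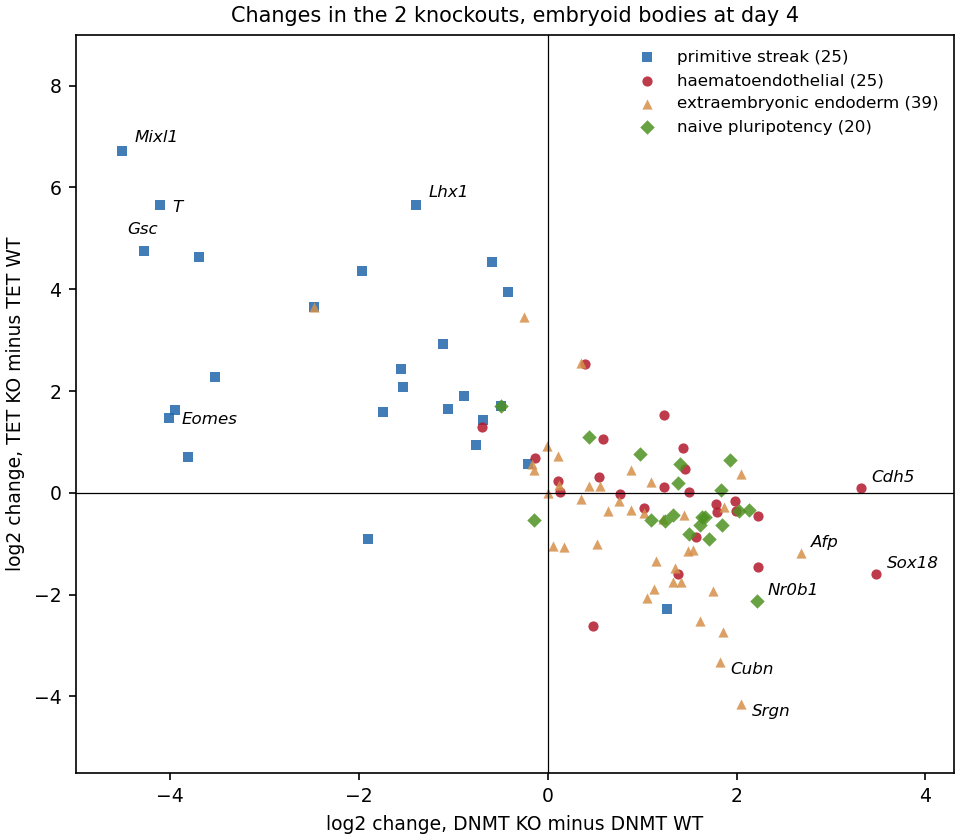
Log2 change in DNMT KO against DNMT WT (x axis) and in TET KO against TET WT (y axis) at EB D4, 1 point for each tested gene of 4 lists. Streak genes (blue squares) lie mostly at the upper left, with T, Mixl1 and Gsc furthest out, and haematoendothelial (red), extraembryonic endoderm (orange) and naive (green) genes mostly to the right of 0.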

How the data were processed

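RNA was sequenced from mouse ESCs and embryoid bodies, with stranded poly(A) libraries per the labels. The deposited values are log2 RPKM per gene, made by the authors. The tools named are HISAT2 2.1.0, cutadapt 1.18 and Trim Galore 0.6.1, with the build GRCm38, per the submitters' processing notes. The counting tool is not given in the sources used here. Of 35269 entries 39 duplicates were left out. Whole reads were recovered for 34825 of 35230 genes, and 97.1% of values of 1 to 100 reads were whole within 0.1. The depth of each library was inferred from the value that its genes without a read carry.

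The test was limma 3.58.1 (R 4.3.3), moderated with a trend and robust estimation, on log2(RPKM + 0.5) over the 11 EB D4 libraries of 4 genotypes. Genes needed at least 1 RPKM in at least 2 of 79 libraries. Differences between effects were contrasts of the same kind of model. The procedure was tested on simulated data. Samples were grouped by their labels. Members, lists and tests were chosen with earlier results of these data known. Genes were named by rule: the 3 targeted genes, the 15 largest rises and the 15 largest falls among called genes that reached 5 RPKM in the mean of their higher genotype, the 6 or fewer called genes of each list that changed most (the 2 highest where none was called), fixed lineage, germline and imprinted genes, and the 5 largest differences in each direction. Alternatives were other pseudocounts, filters, scalings, voom on recovered reads, a replicate block and leaving out each library. Promoters were taken from RefSeq (GRCm38.p6), with the earliest listed start where a gene had several. Some genes are not reported here.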

Additional observations from a re-analysis of the deposited data

Results flagged for a closer look

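The effect of the DNMT knockout differed from another effect, by a test of the difference itself (limma, adjusted p below 0.05 and a size of at least 1 on the log2 scale). It differed from the TET knockout effect at EB D4 for 2459 genes, from its own effect in ESCs for 1176 genes, and between EB D6 and EB D4 for 1851 genes. The values below are differences of log2 changes, and the spread of groups of 2 or 3 libraries was not searched for outliers.

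Against the TET knockout the DNMT knockout change was higher by 5.07 for Sox18, 6.19 for Srgn, 6.78 for Nr1h5, 5.28 for Spink1 and 5.14 for Cubn. It was lower for the streak genes, with differences of -11.23 for Mixl1, -9.03 for Gsc, -9.76 for T, -8.33 for Sp5 and -7.05 for Lhx1.

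Against ESCs the change at EB D4 was higher by 4.13 for Hba-x, 4.07 for Hbb-y, 3.51 for Tuba3a, 3.45 for Rpl39l and 4.89 for Dnmt3l. It was lower for Mixl1 (-5.17), Gsc (-4.58), T (-4.48), Eomes (-4.45) and Foxa2 (-3.95).

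From EB D4 to EB D6 the change was higher by 3.58 for Eomes, 4.28 for Wnt8a, 3.91 for Platr10, 3.74 for L1td1 and 3.62 for Utf1. It was lower for Hba-x (-5.58), Hbb-bh1 (-6.93), Hand1 (-7.43), Foxf1 (-5.90) and Adgra2 (-5.78).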

How the results depend on the processing

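Against 889 genes called at EB D4 as reported, 1480 were called with a pseudocount of 0.1, 1490 with none, 1721 with voom on recovered reads and 2692 on the adjusted p alone (1750 higher, 942 lower). The cause was not tested, other than that the last drops the size threshold. With a replicate block 864 genes were called, and 2519, 1183 and 1849 for the differences from TET KO, from ESC D0 and from EB D4 to EB D6. The deviations of same-numbered libraries from their group means correlated at 0.02 and -0.01. With 2 WT libraries these deviations mirror each other, so the check could hardly show a pairing. The numbers were not taken as pairs, and the counts with a replicate block are those just given. With each library left out the counts ran from 823 to 929, from 2369 to 2531, from 1097 to 1205 and from 1810 to 1893. Of 155 named genes called, 135 were called under all 15 alternatives, and 0 turned direction. With 2 WT libraries and 10.907 to 12.69 M reads, genes near the floor of 0.9 reads have little precision.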
